A study of Mus musculus with 38 samples.

Results

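Spermatid and sperm genes were followed on arrays of stromal vascular cells from mouse epididymal fat, the fat pad that lies against the epididymis. The set held 9 genes, taken by name from the array's own annotation: Tnp1, Tnp2, Prm1, Prm2, Odf1, Akap4, Smcp, Ldhc and Gapdhs. They were measured by 13 of 40628 non-control probes, and they are 9 of 29411 gene names on the array. Each level is log2 of the processed signal minus log2 of that array's 75th percentile signal. A level of 0 is therefore the brightness of the probe at the 75th percentile, and 1 unit is a doubling. Levels of different probes cannot be ranked against each other, so each gene was compared with itself across arrays.

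The 38 arrays came from C57BL/6J mice, weaned at 3 to 4 weeks of age, and the labels call the material infiltrating macrophages. LFC mice ate a low fat control diet with 10% of calories from fat. HFC mice ate a high fat high sucrose diet with 60% of calories from fat. HF5, HF20 and HF75 mice ate the HFC diet with 5, 20 or 75 µg of KAL-1, an aqueous botanical formulation. LFC and HFC had 10 arrays each, at D6, D10, D14, W0, W3, W6, W9, W12, W15 and W18, where D is the day and W the week. Each dose had 6 arrays, at W3 to W18. Each diet and time point had 1 array, so a difference at 1 time point had no replicate check. The protocol had 5 mice of a group killed every 3 weeks, and whether an array pooled them was not given. W0 was read here as elapsed day 14, the same day as D14. For the HF5 and HF20 arrays of W15 and W18 the diet field gives the other one's dose (20 µg for HF5 and 5 µg for HF20). Groups here follow the sample's source name.

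These genes act in the last part of sperm formation. In round and elongating spermatids the histones are first replaced by transition proteins (Tnp1, Tnp2) and then by protamines (Prm1, Prm2), which pack the DNA of the sperm head. Odf1 and Akap4 are structural proteins of the sperm tail, in the outer dense fibres and the fibrous sheath. Smcp sits on the mitochondria of the tail. Ldhc and Gapdhs are germ cell forms of the glycolytic enzymes lactate dehydrogenase and glyceraldehyde phosphate dehydrogenase. Ldhc is already made in spermatocytes, the meiotic cells that come before spermatids. Crisp1, set beside them, is a protein secreted by the epididymis epithelium onto passing sperm. Neither macrophages nor fat cells are known to make the protamines.

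The promoters of these genes are shown because the members rose and fell together across arrays. RefSeq promoter sequences (build GRCm38.p6) were found for 8 of the 9 genes; Odf1 had no entry. The octamer TGATGTCA, which differs by 1 base from the cAMP response element TGACGTCA, was searched on both strands of the 250 bases before each start. It lay in 3 of the 8 genes (Tnp1, Gapdhs and Akap4) and in Crisp1, and in 2.93% of all 32851 promoters. It was chosen after the promoters had been read. TGACGTCA itself was in none of the 8 and in 1.55% of all promoters. The capitals mark the octamer on either strand.
Tnp1, chr1:73015930-73016009, minus strand, 110 to 31 bases before the start: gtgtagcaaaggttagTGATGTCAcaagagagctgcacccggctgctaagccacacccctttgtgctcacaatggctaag
Gapdhs, chr7:30743712-30743791, minus strand, 110 to 31 bases before the start: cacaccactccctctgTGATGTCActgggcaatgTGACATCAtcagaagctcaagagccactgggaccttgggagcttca
Akap4, chrX:7067435-7067514, plus strand, 80 to 1 bases before the start: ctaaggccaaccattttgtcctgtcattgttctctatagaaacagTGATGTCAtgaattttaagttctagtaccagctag

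In the protamines and Tnp2, which are neighbours on chromosome 16, the letters TATAA stood in the 80 bases before the start. TATAA, searched the same way, was in 5 of the 8 genes and in 22.8% of all promoters. The capitals mark it on either strand. A match is a description of letters and says nothing of a factor's binding.
Prm1, chr16:10796824-10796903, minus strand, 80 to 1 bases before the start: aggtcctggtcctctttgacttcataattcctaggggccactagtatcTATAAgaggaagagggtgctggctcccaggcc
Prm2, chr16:10792106-10792185, minus strand, 80 to 1 bases before the start: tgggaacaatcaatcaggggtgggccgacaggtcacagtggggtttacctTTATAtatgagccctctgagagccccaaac
Tnp2, chr16:10788656-10788735, minus strand, 80 to 1 bases before the start: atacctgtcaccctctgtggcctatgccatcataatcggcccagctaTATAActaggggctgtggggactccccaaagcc

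The arrays differed in brightness, with a 75th percentile signal from 25.8 (HF5 W12) to 1980 (HFC W0), and 41.0% to 91.2% of probes were well above background by the scanner software's flag. The macrophage markers were present throughout: of 13 probes, 10 to 13 were well above background on each array, and their median level ran from 0.06 (HF20 W12) to 4.31 (HF5 W9). Stromal, endothelial and adipocyte markers were present on every array as well. LFC and HFC were scanned on the same day at each of the time points. The titles of the LFC and HFC arrays of W9 have a W before the letter E that most others carry alone. Titles of the W0, W3 and W6 arrays and of LFC and HFC at W9 carry an R, some with a number, and the others do not. The title of LFC W12 gives no week. The meaning of these marks was not given.

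Every sperm gene was well above background on some arrays, and for most genes the range over arrays was very wide. The transition protein Tnp1 ran from -5.40 (HF75 W6) through a median of -1.92 to 5.21 (HF5 W18). It was well above background on 37 of 38 arrays. Tnp2 ran from -5.80 (HF20 W6) through -3.47 to 2.04 (HF5 W18), with 36 arrays well above background. Both transition proteins thus had their highest array in HF5 W18.

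The protamines were seen on nearly every array. Prm1 ran from -5.15 (LFC W12) through a median of 0.25 to 7.14 (HF5 W9), and was well above background on all 38 arrays. Its brightest probe was saturated on HF5 W9, HF5 W18 and HF20 W9, so those levels are lower bounds. Prm2 ran from -6.29 (HFC W9) through -0.21 to 6.80 (HF5 W9), with 37 arrays well above background and HF20 W9 saturated.

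The tail genes were well above background on the fewest arrays. Akap4 passed on 18 of 38 arrays and ran from -7.88 (HF5 W15) to 0.18 (HF5 W18), with a median of -5.93. Odf1 was well above background on 12 arrays, and its highest level was -2.01 (HF20 W12). In LFC mice both were well above background on 1 array of 10, LFC W6. In HFC mice Akap4 passed on 6 arrays of 10 and Odf1 on 4. At most time points more of all probes were well above background on HFC than on LFC, as at D14 (82.8% and 74.6%). The share was lower on HFC at W3 (63.8% and 68.9%) and W9 (67.2% and 67.6%). The counts of the tail genes take no account of this.

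Smcp ran from -8.72 (HF20 W6) through a median of -2.60 to 3.35 (HF5 W9), with 31 arrays well above background. Ldhc ran from -8.51 (HF20 W6) through -1.62 to 4.66 (HF5 W18), and Gapdhs from -8.60 (HF20 W6) through -4.48 to 1.34 (HF5 W9). Ldhc and Gapdhs were each well above background on 30 arrays. The lowest of these values were not well above background and are upper bounds.

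**Figure D1:**
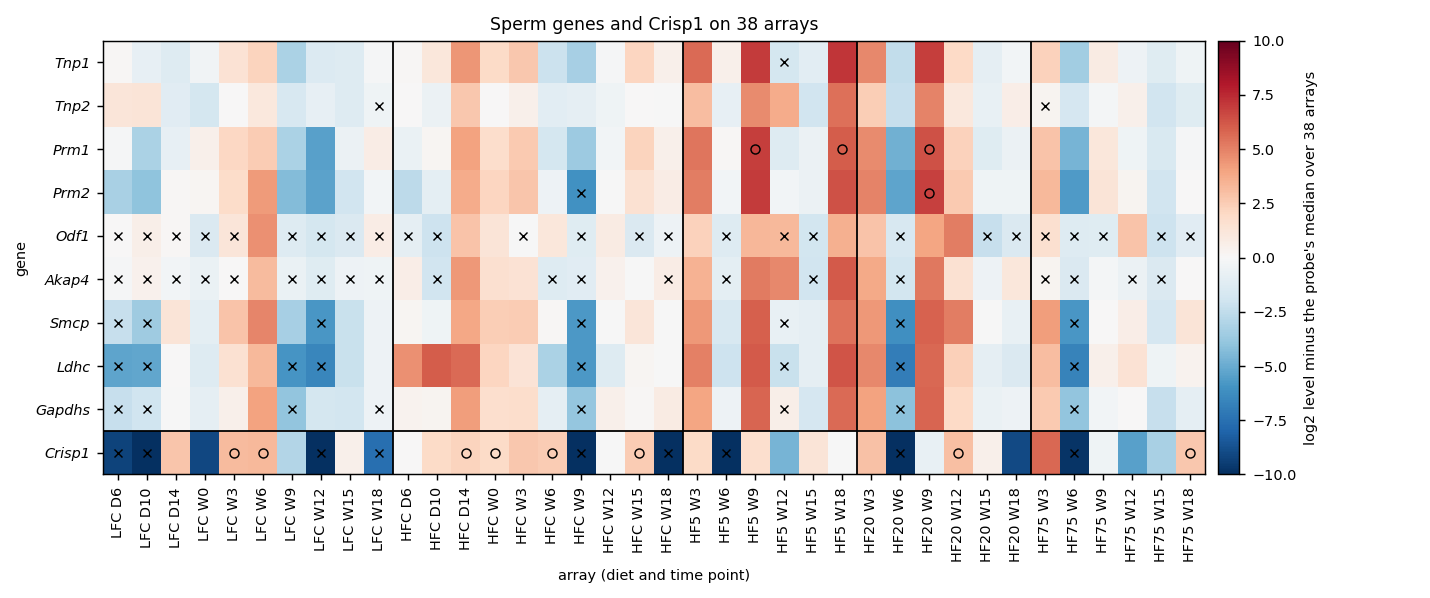
Each column is 1 of 38 arrays, ordered by diet and time, and each row is a gene by its brightest probe. Colour is the log2 level minus that probe's median over the 38 arrays and stops at 10 either way, a cross marks a probe not well above background and a circle a saturated one. The columns HF5 W9, HF20 W9 and HF5 W18 are red for all 9 sperm genes, and HF20 W6 is blue for all 9.

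The 9 genes put the same few arrays at the top and at the bottom. HF5 W9, HF5 W18 and HF20 W9 were among the 5 highest arrays for all 9 genes, with mean ranks of 2.11, 2.22 and 2.44 from the highest. HF5 W3 and HF20 W3 followed with a mean rank of 6.00 each, then HFC D14 (6.33) and LFC W6 (7.22). At the other end HF20 W6 had a mean rank of 36.4 and HF75 W6 of 35.1, and each was among the 5 lowest arrays for 8 of the 9 genes. LFC W12 (33.4), HFC W9 (33.1) and LFC W9 (33.0) came next. On HFC W9 3 of the 9 genes were well above background, the fewest of any array. Levels not well above background were ranked as recorded, so the order among the lowest arrays is loose.

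Arrays of HF5, HF20, HFC and LFC were thus among the highest, and arrays of HF20, HF75, LFC and HFC among the lowest. At W6 the LFC array was high while HF20 and HF75 were low. At W9 HF5 and HF20 were high while LFC and HFC were low. HF5 W9 and HF20 W9 differed by at most 0.57 for the 7 members that were saturated on neither. Their files were not identical, and 14.7% of all probes differed by over 1 log2 unit between them. Their correlation over all probes was 0.980, rank 7 of 703 array pairs, where the highest was 0.985.

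HF5 W12, the array with the lowest 75th percentile signal, put the genes in another order. Tnp2 (0.27) and Akap4 (-1.11) each had rank 4 of 38 there and were well above background. Tnp1, Smcp, Ldhc and Gapdhs were not well above background on it, nor was Odf1. Prm1 (-1.07) ranked 30 and Prm2 (-0.51) ranked 22. On this array Tnp2 and Akap4 thus ranked high while the brightest Prm1 probe and Prm2 did not. The lowest level of any probe well above background there was -2.75. That is above the medians over arrays of Tnp2 (-3.47) and Akap4 (-5.93), so any detected value of either lies above its median. Odf1, not well above background at -3.95, still had rank 6, so the ranks of dim genes on this array are no measure of a gene order. Another Prm1 probe stood at -0.07 there, rank 13 of 38, and a further one at -3.72.

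The members moved together. Over the 38 arrays the 28 pairs among the 8 genes other than Odf1 had Pearson correlations from 0.61 to 0.96, with a median of 0.86. The closest pair was Prm1 with Prm2 (r = 0.96, rho = 0.93). Tnp2 went most closely with Akap4 (r = 0.94) and least with Ldhc (r = 0.61). Odf1, dim on most arrays, had correlations of 0.56 to 0.78 with the others. All points share their arrays and each array's scaling, and no test was made. The correlation of the members' mean level with log2 of the array's 75th percentile signal was r = -0.16 and rho = -0.32.

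Other probes of 3 genes gave a check of these levels. The Prm1 probe within the coding sequence is shown because it carries the arginine codons that mark a protamine, and it was well above background on all 38 arrays. Its 60 bases are 70.0% G or C, and the capitals mark the 12 arginine codons among 19 codons of the reading frame that holds most of them:
Prm1 coding probe: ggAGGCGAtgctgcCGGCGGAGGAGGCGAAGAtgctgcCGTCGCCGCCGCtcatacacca

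Over the 38 arrays the coding probe followed the brightest Prm1 probe with r = 0.91. The other Prm1 probe, with 38.3% G or C, followed it with r = 0.97 but was well above background on 31 arrays rather than 38. On 7 arrays, then, whether Prm1 was well above background depended on the probe. The second Gapdhs probe (r = 0.81) was well above background on 19 arrays and the second Odf1 probe (r = 0.59) on 4.

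The first diet question was whether high fat high sucrose feeding changed these genes against the low fat diet. A diet was compared at each of 10 time points with 1 array per side. A gene was counted where it differed at least 2-fold and was well above background on at least 1 side, a dim side being raised to the array's lowest detected level. At D14 all 9 sperm genes were at least 2-fold higher in HFC, when 11.6% of probes were higher and 9.55% lower. At W0, read as the same day, all 9 were again higher, beside 8.75% of probes higher and 5.39% lower. At W6 all 9 were at least 2-fold lower in HFC, beside 8.17% of probes higher and 13.2% lower.

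At W12 8 of 9 genes were higher in HFC, when 34.3% of probes were higher and 19.8% lower. The title of the LFC array of W12 gives no week, and on HFC W12 4850 of 43803 spots were flagged as outliers. The adipocyte median was 5.36 on LFC W12 and 1.73 on HFC W12. These limits hold for every W12 difference between the diets. At W15 7 of 8 were higher, with 9.76% of probes higher and 8.88% lower. At D10 6 of 7 were higher and 1 lower, with 20.8% and 20.9% of probes. At D6 3 of 8 were higher and 1 lower, with 13.9% and 12.5% of probes. At W3 3 of 8 were higher and 0 lower (10.2% and 7.79% of probes). At W9 0 of 5 were higher and 2 lower (6.64% and 6.89%), and at W18 2 of 7 were higher and 0 lower (19% and 13.1%). The direction was thus not the same at all time points.

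Prm2 shows the pattern. At D14 it stood at 3.53 in HFC and -0.10 in LFC, a 12.3-fold difference. At W6 it stood at -0.70 in HFC and 4.01 in LFC, 26.3-fold lower in HFC. At W12 it stood at -0.24 in HFC and -5.57 in LFC, 40.3-fold higher in HFC. Tnp1 followed it, 51.8-fold higher in HFC at D14 (2.51 and -3.18) and 20.3-fold lower at W6 (-4.03 and 0.31).

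Ldhc differed most in the first days. It stood at 2.97 on HFC D6 and 4.40 on HFC D10, and was not well above background on either LFC array of those days. With the LFC side raised to its array's lowest detected level, the difference was 8.91 log2 units at D6 and 10.60 at D10. This is no strict minimum, since on LFC D6 Smcp at -4.93 was above that level (-5.94) and yet not well above background. On HFC D10 Ldhc had rank 3 of 38 arrays, while Akap4 and Odf1 were not well above background and Prm2 (-1.21) ranked 28. On HFC D6 Ldhc ranked 8, Akap4 (-5.27) was well above background at rank 14, and Prm2 (-2.86) ranked 31. The brightest Odf1 probe was not well above background on HFC D6, but the second was, at -5.45.

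**Figure D2:**
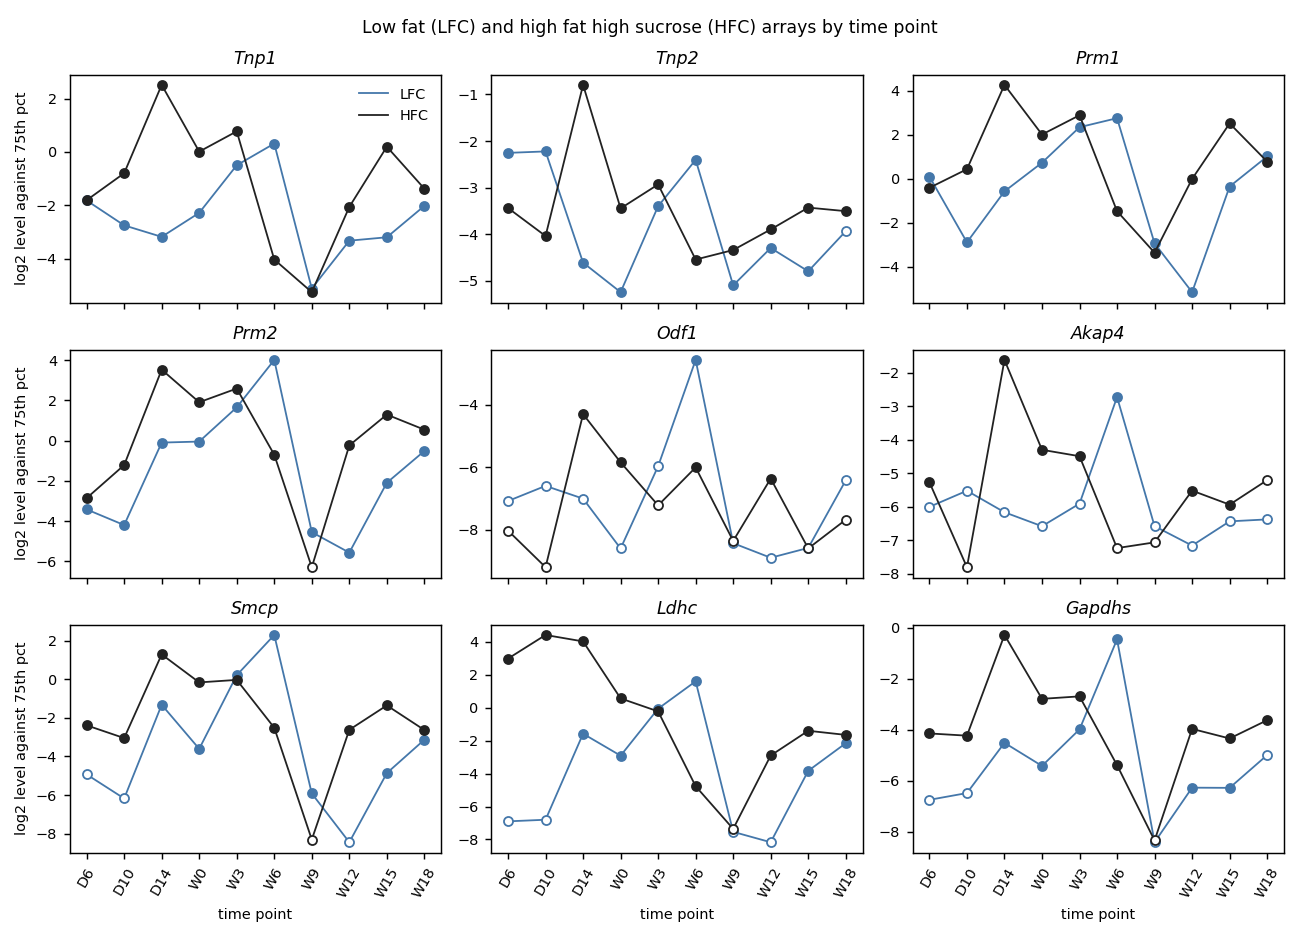
Log2 level of each sperm gene against the array's 75th percentile (vertical axis) at the 10 time points (horizontal axis) on LFC and HFC arrays, 1 array per point, with no error bar. Filled points were well above background and open points were not. The HFC points lie above the LFC points at D14 and W0 and below them at W6 for all 9 genes.

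The spread between same-diet arrays of the same day was large. In HFC, D14 exceeded W0 for all 9 genes, by 1.45 (Smcp) to 3.46 (Ldhc). In LFC, D14 and W0 differed by between -1.30 (Prm1) and 2.29 (Smcp). The same pair of LFC arrays differed by 11.83 for Crisp1 (5.88 on D14 and -5.96 on W0).

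Over all 10 time points no gene passed the test between these diets. In limma with the time point as a block, 8 of the 9 genes passed the filter on dim probes (well above background on at least 0.5 of the arrays of 1 diet), and Odf1 did not. None of the 8 was called at an adjusted p of 0.05, nor was any of 31026 probes (0% called). At an unadjusted p of 0.05 1 member of 8 passed, Ldhc, against 9.55% of all probes. The fitted differences, HFC minus LFC, ran from 0.39 (Tnp2) to 3.20 (Ldhc) with a median of 1.30, and the median over all probes was -0.01. The LFC and HFC values overlapped for all 9 genes, and 0% of all probes did not overlap.

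For Ldhc the mean was -0.64 ± 3.81 in HFC and -3.84 ± 3.38 in LFC (SD, n = 10 each). Ldhc was not well above background on 4 LFC arrays and 1 HFC array, and those levels entered the means and the fit as recorded. The size of its difference thus rests partly on levels not well above background. At 9 time points Ldhc was well above background in at least 1 diet, and it was higher in HFC at 7 of them. The fitted difference was 3.20 with a standard error of 1.43 (limma, adjusted p = 0.52). Without D6 and D10 the Ldhc difference was 1.36, and with the log2 75th percentile as a covariate it was 0.61. For Prm2 the mean was -0.14 ± 2.87 in HFC and -1.48 ± 3.03 in LFC (SD, n = 10 each). It was higher in HFC at 8 of 10 time points, by 1.34 with a standard error of 0.81 (limma, adjusted p = 0.56). Another background correction (normexp) turned the sign of the difference for a pair of genes: Tnp2 went from 0.39 to -0.15 and Akap4 from 0.50 to -0.32.

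The genes showed no trend with time that passed the test. The fitted slopes on elapsed day, in log2 units per week over the 20 LFC and HFC arrays, were below 0 for all 8 tested genes, with a median of -0.06 against 0.00 for all probes. None of the 8 was called (limma, smallest adjusted p = 0.59), while 0.516% of probes were. The change of the diet difference with day was called for 0 of the 8 genes and for 0% of probes (limma, smallest adjusted p among the genes = 0.97), with 1297 probes at an unadjusted p of 0.05.

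The second question was whether the formulation changed these genes on top of the high fat high sucrose diet. Comparisons of the 3 doses share the same HFC arrays, so they are not independent. The W9 values were the farthest apart. At W9 the 3 doses were scanned on a different day from HFC and LFC, so at that week dose and scan day cannot be told apart. The same holds for HF20 and HF75 at W3 and W18 and for HF75 at W6, which were not scanned on the day of HFC. The titles of HFC and LFC at W9 also carry an R number and a W before the E, which those of the doses do not. Adipocyte medians at W9 were 5.38 on HFC and 5.48 on LFC, against 3.96 on HF5, 3.10 on HF20 and 3.92 on HF75. Dose cannot be told apart from these differences between the arrays either. Prm2 stood at 6.80 on HF5 W9, at least 6.62 on HF20 W9 (saturated) and 1.06 on HF75 W9, against -6.29, not well above background, on HFC W9 and -4.55 on LFC W9. All 9 genes were at least 2-fold higher than HFC on HF5 W9, when 26.1% of probes were higher and 23.1% lower, and on HF20 W9, when 26% were higher and 19.7% lower. On HF75 W9 6 of 8 were higher and 0 lower (23.7% and 15.7% of probes). The W9 HFC array was among the 5 lowest of all arrays for 6 of the 9 genes.

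At W18 all 9 genes were at least 2-fold higher on HF5 than on HFC, when 12.4% of probes were higher and 7.26% lower. On HF20 0 of 8 were higher and 4 lower (16.8% and 3.54% of probes), and on HF75 1 was higher and 2 lower of 8 (9.61% and 9.14%). Prm2 stood at 6.18 on HF5 W18, 0.55 on HFC, -0.66 on HF20, -0.18 on HF75 and -0.51 on LFC. The HF5 array of W18 is 1 of the 4 whose diet field gives the other dose. At W15 the order was turned: 8 genes were lower on HF5, HF20 and HF75 than on HFC, and Odf1 was not well above background on any of these arrays. Those at least 2-fold lower were 8 of 8 on HF5 (11% of probes lower, 4.46% higher), 5 of 8 on HF20 (7.02% lower, 11.2% higher) and 7 of 8 on HF75 (17.3% lower, 6.03% higher), and none was at least 2-fold higher.

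At W3 all 9 genes were at least 2-fold higher than HFC on HF5 (6.78% of probes higher, 4.61% lower) and on HF20 (7.41% higher, 3.14% lower). On HF75 2 of 8 were higher and 0 lower (24.9% and 21.5% of probes). Prm2 stood at 4.93 on HF5, 4.71 on HF20, 3.04 on HF75, 2.59 on HFC and 1.66 on LFC. At W6 the order was another. Prm2 stood at -0.50 on HF5, -5.52 on HF20, -5.84 on HF75, -0.70 on HFC and 4.01 on LFC. Of 8 genes 3 were at least 2-fold higher and 2 lower on HF5 (6.79% and 8.4% of probes), 0 higher and 7 lower on HF20 (9.9% and 9.41%), and 0 higher and 7 lower on HF75 (10.5% and 14.5%).

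At W12 HF20 was the highest of the doses for 7 of the 9 genes, while Tnp2 (0.27 on HF5, -2.40 on HF20) and Akap4 (-1.11 on HF5, -4.44 on HF20) were highest on HF5. Prm2 stood at -0.51 on HF5, 2.38 on HF20, 0.09 on HF75, -0.24 on HFC and -5.57 on LFC. All 9 genes were at least 2-fold higher than HFC on HF20 (23% of probes higher, 19.7% lower). On HF5 2 were higher and 1 lower of 9 (14.8% and 7.29%), and on HF75 2 were higher and 0 lower of 9 (16.6% and 17.9%). No diet had the highest Prm2 at every week.

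**Figure D3:**
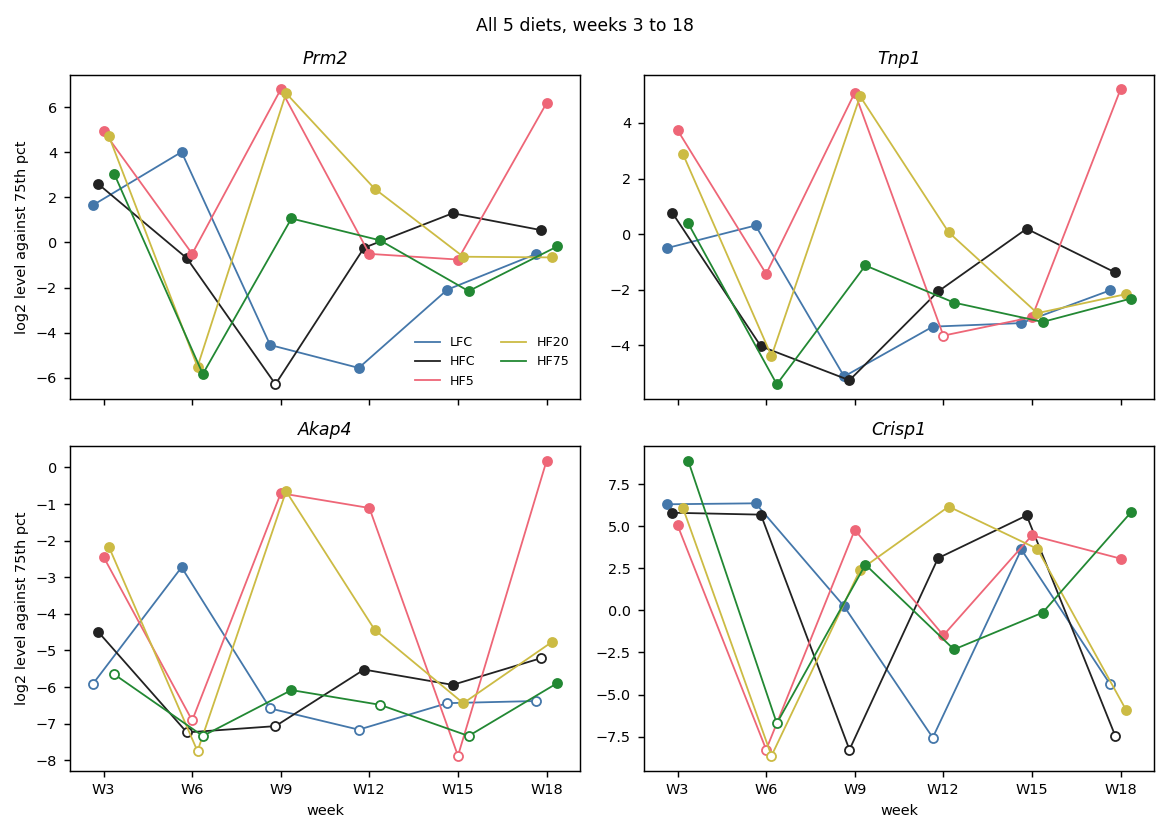
Log2 level of Prm2, Tnp1, Akap4 and Crisp1 against the array's 75th percentile (vertical axes) by week (horizontal axis) in all 5 diets, 1 array per point, with no error bar. Filled points were well above background and open points were not. The HF5 and HF20 points of the 3 sperm genes lie together far above the HFC and LFC points at W9, and HF5 alone is high at W18.

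In limma over the 30 arrays of W3 to W18, with the week as a block, no dose passed the test. All 9 genes were tested. For HF5 minus HFC 0 of 9 genes and 0% of 33709 probes were called. At an unadjusted p of 0.05 2 of 9 genes passed, Tnp2 and Akap4, against 4.64% of probes. Both were higher at W12, by 4.16 and 4.41, on HF5 W12, the array with the fewest probes well above background (41.0%). The lowest level well above background there was -2.75, above the HFC W12 levels of Tnp2 (-3.89) and Akap4 (-5.52). The median difference of the 9 genes at that week was -0.27, with 4 of 9 higher. At W3, W9 and W18 all 9 genes were higher on HF5. The HF5 differences ran from 1.78 (Odf1) to 3.48 (Ldhc) with a median of 2.77, and the median over all probes was 0.02. Tnp2 was higher on HF5 at 5 of 6 weeks, with means of -1.08 in HF5 and -3.77 in HFC over the same weeks, a difference of 2.69 with a standard error of 0.92 (limma, adjusted p = 0.70).

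For HF20 minus HFC 0 of 9 genes and 0% of probes were called, and the median difference was 1.54 (all probes 0.09). For HF75 minus HFC 0 of 9 genes and 0% of probes were called, 3 of 9 genes were higher, and the median was -0.38 (all probes 0.02). For the mean of the 3 doses minus HFC 0 of 9 genes and 0% of probes were called, with a median of 1.25 (all probes 0.04). The adjusted p-values of members were close to 1 in each of these 3 (limma), and 594, 678 and 638 probes passed at an unadjusted p of 0.05. Each dose overlapped with HFC for all 9 genes, and the share of all probes that did not overlap was 0.00792% for HF5, 0.0282% for HF20 and 0.0312% for HF75.

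These medians rested on single weeks and labels. Without W9 the HF20 median was -0.13, with 4 of 8 tested genes higher, the HF5 median was 1.35, with 8 of 8 higher, and the HF75 median was -1.16, with 1 of 8 higher. In all weeks but W9 the HF5 array shared its scan day with HFC. Taking the dose from the diet field gave a median of 1.75 for HF5 and 2.38 for HF20. Without W9 the mean of doses minus HFC was below 0 for Prm1 (-0.28), Prm2 (-0.39), Smcp (-0.26) and Gapdhs (-0.19).

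Crisp1, the epididymis gene, went only partly with the sperm genes. It ran from -8.64 (HF20 W6) through a median of 3.13 to 8.89 (HF75 W3), was well above background on 29 of 38 arrays and saturated on 8, where its level is a lower bound. Over the 38 arrays the members' mean level correlated with Crisp1 with r = 0.60 and rho = 0.60. Without the 2 arrays farthest from the median of Crisp1 r was 0.53. By gene, r ran from 0.25 (Tnp2) and 0.34 (Akap4) to 0.75 (Smcp). The closeness among the sperm genes, with a median r of 0.86, was thus not matched by Crisp1, as a description over the same arrays.

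Crisp1 and the sperm genes did not always go together on an array. Crisp1 was not well above background on HFC W18 (-7.45) and HF5 W6 (-8.27), while 7 of the 9 sperm genes were. A count of 7 was also the median over arrays. The mean ranks of the sperm genes were 17.1 on HFC W18 and 24.6 on HF5 W6. On those arrays Prm2 stood at 0.55 and -0.50. On HF20 W18 8 of 9 sperm genes were well above background, with a mean rank of 22.3 and Crisp1 at -5.89. In the other direction Crisp1 stood at no less than 5.69 on HFC W6 and 5.84 on HF75 W18 (both saturated) and at 5.88 on LFC D14, where the mean ranks of the sperm genes were 27.1, 21.2 and 22.2. HF75 W3 had the highest recorded Crisp1 and a mean sperm gene rank of 10.2. The 3 highest sperm arrays had Crisp1 at 4.78, 3.08 and 2.41, ranks 15, 21 and 23.

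**Figure D4:**
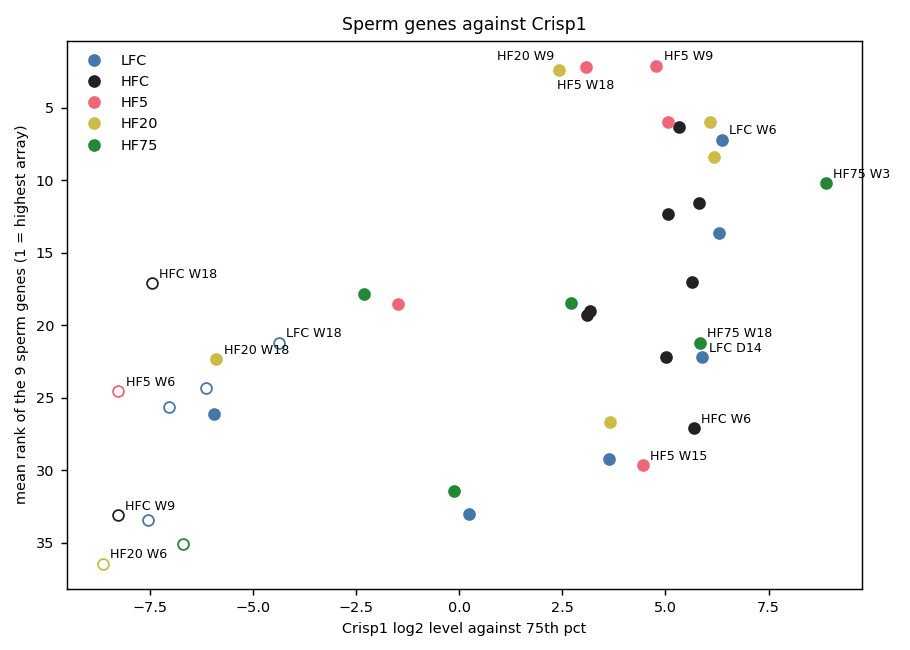
Mean rank of the 9 sperm genes over 38 arrays (vertical axis, 1 is the highest array) against the Crisp1 log2 level (horizontal axis), 1 point per array, coloured by diet. Open points had Crisp1 not well above background. The arrays HF5 W9, HF5 W18 and HF20 W9 lead in sperm genes at middling Crisp1 levels, and HFC W18 and HF5 W6 sit at the left with Crisp1 not well above background.

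Crisp1 did not differ between diets by the same tests. It was higher in HFC than in LFC by 3.18 with a standard error of 1.98 (limma, adjusted p = 0.57), at 5 of the 9 time points with a value well above background. The mean of doses minus HFC was 0.34 with a standard error of 2.43, and the adjusted p was close to 1 (limma). This sign turned under other scalings and blocks: it was -0.025 under quantile scaling and -1.86 with the scan day as block.

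Other genes of sperm formation and of the male tract were taken from lists. Of 62 further spermatid genes 61 were on the array, and all 61 were well above background on at least 1 array. Between 19 (HF5 W12) and all 61 (HFC D14) were well above background on an array. The median level of this list followed that of the 9 genes with r = 0.95, and 21 of the 61 genes had their highest level on HF5 W18. The 3 of highest mean level were Hk1, Odf2 and Crem. Odf2, an outer dense fibre gene, ran from -0.40 to 5.37 (HF5 W9) and followed the members' mean with r = 0.92. Hk1 (r = 0.02), a hexokinase made in most tissues, and Crem (r = 0.08), a transcription factor with forms outside the testis, did not follow it.

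None of the spermatid genes was called in HFC minus LFC (0 of 55 tested, median 0.59) or in HF5 minus HFC (0 of 59, median 1.93). At an unadjusted p of 0.05 34 of the 59 were higher in HF5 and 0 lower, where 4.64% of all probes passed in either direction. For HF20 9 of 59 passed (1.76% of all probes) and for HF75 0 of 59 (2.01%). The list moved with the members over the same arrays, so these genes are not independent and the counts are no test of a dose. The limits given for the members, of W9 and of the dose labels of W15 and W18, hold here too.

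The 27 spermatocyte genes, which act in meiosis, followed the members with r = 0.80, and the median of the list was highest on HFC D10 (-2.38). On that array 8 of the 27 genes had their highest level. Among them were the synaptonemal complex gene Sycp1 (-1.82 against a median of -7.02 over arrays), the piRNA pathway genes Piwil1 (-1.54 against -7.33) and Tdrd1 (0.38 against -5.28), and the cohesin gene Smc1b (-0.53 against -5.82). They were named after their values were seen. Other genes of the list were not high there: Dmc1 was not well above background on HFC D10, and Hormad1 (-3.51 against -3.66) had rank 17. HFC D10 is the array on which Ldhc had rank 3 and the tail genes were not well above background. The 3 spermatocyte genes of highest mean level, Rec8, Hspa2 and Syce2, had r of 0.53, 0.36 and 0.56 with the members' mean.

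Markers of spermatogonia and of the supporting testis cells followed the members less closely. The 15 spermatogonium genes (Zbtb16, Id4 and Sall4 the highest) followed the members with r = 0.48, the 13 Sertoli genes (Sox9, Dhh and Cldn11) with r = 0.36 and the 8 Leydig genes (Insl3, Cyp17a1 and Star) with r = 0.30. On HFC D10 all 13 Sertoli genes were well above background, more than on any other array, and their median was -1.61. Some of these genes, such as Sox9, Id4 and Dhh, are also made outside the testis. On the 3 arrays highest in sperm genes 7 of the 13 Sertoli genes and 4 of the 8 Leydig genes were well above background. Counts of 7 and 4 were also the medians over all arrays.

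The 29 epididymis epithelium genes (Spink8, Crisp1 and Cuzd1 the highest) followed the members with r = 0.59. Their median ran from -8.62 (HF20 W6) to 2.78 (LFC D14), and 4 (HF75 W6) to 29 of them were well above background. The 10 seminal vesicle genes (Spinlw1, Svs5 and Spink3) followed with r = 0.38. Their median was 4.94 on HF5 W18 and 4.63 on HFC W18, against a median of -6.63 over arrays. HF5 W18 was thus high in both sperm and seminal vesicle genes, while HFC W18 had a mean sperm gene rank of 17.1. HF5 W9 and HF20 W9, high in sperm genes, had seminal vesicle medians of -6.69 and -6.98. Spinlw1 differed from the other named seminal vesicle genes. It was highest on HF75 W3 (6.03), as Spink8, Crisp1 and Cuzd1 were, while Svs5 and Spink3 were highest on HFC W18.

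The marker lists of the labelled cells and of fat tissue showed little relation to the sperm genes. The macrophage median had r = 0.10 with the members' median (Lyz2, Lyz1 and C1qc the highest), stromal and endothelial genes r = -0.23 (Dcn, Col1a2, Col3a1), and adipocyte genes r = -0.22 (Fabp4, Cfd, Cidec). The adipocyte median was highest on LFC W9 (5.48) and HFC W9 (5.38), and LFC W12 had 5.36. These were 3 of the 5 arrays lowest in sperm genes, but the others of the 5, HF20 W6 and HF75 W6, had adipocyte medians of -0.27 and 1.36. Next in adipocyte median were HF75 W12 (5.27) and LFC D6 (5.06), with mean sperm gene ranks of 17.9 and 24.3. What part epididymis, testis or seminal vesicle tissue has in these levels was not tested, and fewer cells of a type and less RNA per cell cannot be told apart.

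**Figure D5:**
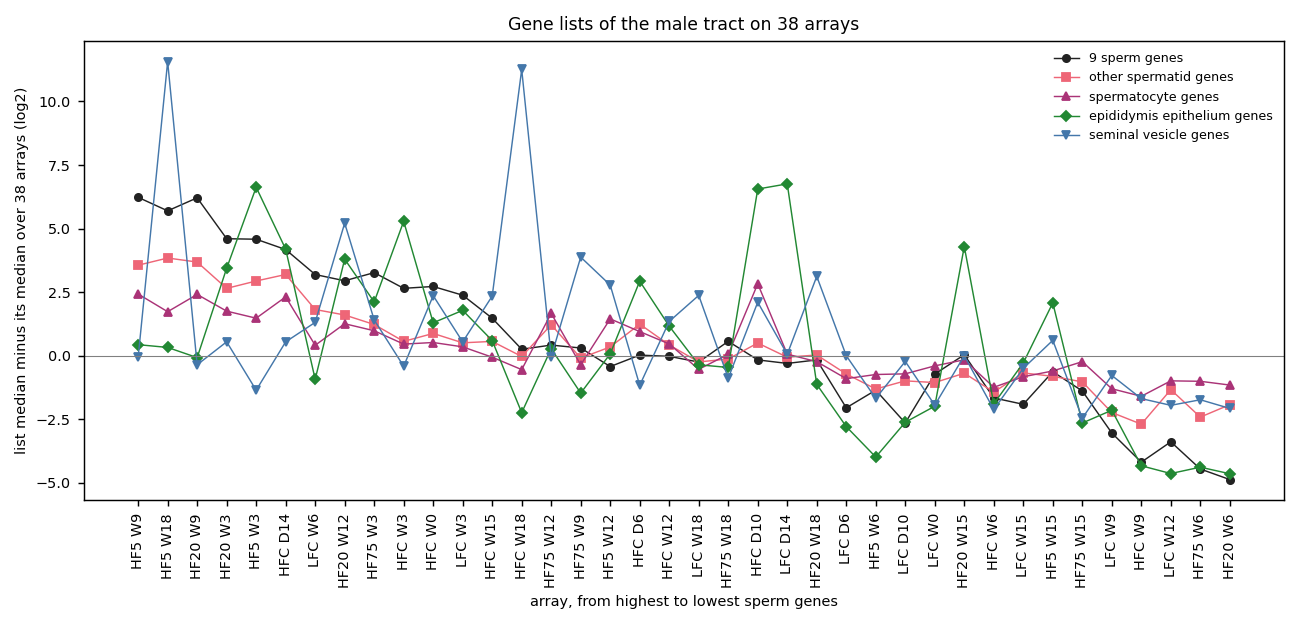
Median log2 level of 5 gene lists, each minus its own median over the 38 arrays (vertical axis), on the 38 arrays ordered from the highest to the lowest sperm genes (horizontal axis). The line of other spermatid genes falls with that of the 9 sperm genes, while seminal vesicle genes peak on HF5 W18 and HFC W18 and epididymis genes are high on LFC D14 and HFC D10.

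Likeness to the set was measured over the 38 arrays for all other genes. Among 28033 probes well above background on at least 6 arrays, 75 probes of other genes had r above 0.9 with the members' mean level and 11 had r above 0.95. The median over all probes was -0.04. The 5 closest were Prm3 (r = 0.98), a protamine-like gene that lies with Prm1, Prm2 and Tnp2, Gm9999 (0.98), 4931407G18Rik (0.98), whose current symbol is Cabs1, 1700009N14Rik (0.98) and the spermatid kinase gene Tssk3 (0.98). Prm3 ran from -8.70 (HF20 W6) through -4.04 to 2.60 (HF5 W18). Tssk3 ran from -8.66 (HF20 W6) through -4.59 to 0.92 (HF5 W9). Both had their lowest array in common with Smcp, Ldhc and Gapdhs.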

How the data were processed

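The 38 arrays were 1-colour Agilent arrays read with Feature Extraction, 10.5.1.1 per the file headers and 9.1 per the labels. The deposited intensity values, with background and outlier flags, were made by the authors with that software. The authors also deposited a table of log2 ratios of each array over the LFC array of its time point, which served as an alternative only; it correlated with ratios computed here with r of at least 0.992. The intensity is a processed signal; log2 of it minus the log2 75th percentile of the array's non-control spots gave the level. Spots flagged as outliers were left out and replicate spots averaged, from 43803 spots to 40628 probes. Outlier spots numbered 6257 on HF75 W12, 4850 on HFC W12 and 922 on HFC D10, and at most 98 on any other array. The study's methods describe a t-test of 3 control against 3 treated values, while the files used here hold 1 array per diet and time point, so time points stood in for replicates and p-values measure the spread between them, biological and technical together. Their number limits the precision.

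A gene was taken by its probe of highest mean level. Fits used limma 3.58.1 (R 4.3.3) with Benjamini-Hochberg adjustment over all probes and a threshold of 0.05, on probes that were well above background in at least 0.5 of a diet's arrays, for 1 diet or more. HFC and LFC were fitted over 20 arrays with the time point as a block, and all diets over 30 arrays of W3 to W18 with the week as a block. Levels not well above background and saturated levels entered the fits, means and correlations as recorded. The fits were tested on simulated data. Named genes were the 9 members and Crisp1, the 3 brightest genes of each other list and the 5 closest in pattern; others are said to be named after their values were seen. Members and lists were chosen with earlier results of these data known. Alternatives were another background correction (normexp, offset 50), quantile scaling, 2 other filters, scan day, slide and brightness as terms, no block, each time point left out, the other dose label, the array HF5 W12 left out, the methods' t-test and the authors' table; leaving out D6 and D10 together was chosen after seeing the data. Motif matches and promoters come from RefSeq sequences of GRCm38.p6, a later build than the array's design, and no coordinates were converted.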

Additional observations from a re-analysis of the deposited data

Results flagged for a closer look

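Of 50 sets of arrays (10 genes in 5 diets) 5 held 1 array far from the rest, with a gap to its neighbour above the 95% limit of Dixon's test, which chance gives in about 1 in 20 sets. Tnp2 was high on HFC D14 at -0.79. Odf1 at -2.57 and Akap4 at -2.73 were both high on LFC W6, the single LFC array on which either was well above background. Smcp was low on HFC W9 at -8.31 and Ldhc low on HF75 W6 at -8.30, both not well above background, so their gaps rest on bounds.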

How the results depend on the processing

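The 6 counts of probes past the threshold that were 0 (HFC minus LFC, its change with day, and the 4 dose comparisons) were 0 under every alternative run, while an unadjusted p of 0.05 gave 1050 to 4242 probes for HFC minus LFC, 423 to 2610 for its change with day, 146 to 2001 for HF5, 66 to 1070 for HF20, 135 to 1444 for HF75 and 70 to 1066 for the mean of doses. Without the time point block, which stands in for a pairing of arrays, these counts were likewise 0. The R marks in some titles were not used as replicate numbers, since their meaning was not given. The count of probes with a slope on elapsed day, 160, was 1 with normexp background, 84 with probes well above background on every array, 10 without D6 and D10, and 61 to 237 when each time point was left out, lowest without D6; the cause was not tested. It could not be fitted with the scan day as block. The methods' t-test gave 1160 probes at an unadjusted p of 0.05, 295 of them at least 2-fold, and 0 after Benjamini-Hochberg.

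Of 182 alternative values of the HFC minus LFC differences of single genes 2 turned sign: with normexp background Tnp2 was -0.15 and Akap4 -0.32. Of 149 values of the mean of doses minus HFC 11 did. For Crisp1 the value was -0.79 with normexp background, -0.025 with quantile scaling, -1.86 with scan day as block, -0.13 with slide as random block, -1.90 without W9 and -1.28 without W18. For Gapdhs it was -0.19 with scan day as block and -0.19 without W9. Leaving out each week in turn gave -0.28 to 2.08 for Prm1, -0.39 to 2.48 for Prm2, -0.26 to 2.59 for Smcp, -0.19 to 1.73 for Gapdhs and -1.90 to 3.12 for Crisp1, each lowest without W9. None of these genes was called under any alternative (smallest adjusted p = 0.34, limma). The arrays HF5 W12, HF75 W3 and LFC W18 had the fewest probes well above background (41.0%, 47.1% and 57.0%), so that a dim gene there has only a bound.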
